A study of Caenorhabditis elegans with 45 samples.

Results

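The loss of EGL-9 was described across all genes by comparing 5 libraries of egl-9(sa307), strain JT307, with 5 libraries of the wild-type strain N2, 10 of the 45 libraries of the study. The libraries were taken by genotype and replicate letter (A to E) from the labels, and both groups have intact nonsense-mediated decay (NMD), the pathway that destroys mRNAs with premature stop codons. All animals were whole Caenorhabditis elegans hermaphrodites, fed OP50 bacteria at 20 °C in 20% oxygen without treatment. For each library 300 to 500 L4 larvae were moved to a new plate and collected 6 h later as young adults, and polyadenylated RNA was sequenced. Each genotype is represented by 1 strain, so differences between strains other than the named alleles are part of every comparison. Groups of 5 libraries from 5 further genotypes are used beside the main comparison: egl-9(sa307) hif-1(ia4), strain CB6088; smg-1(n6597), strain MT26974; smg-1(n6597); egl-9(sa307), strain MT26971; smg-2(r863), strain MT27410; and smg-2(r863); egl-9(sa307), strain MT26461.

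EGL-9 is the HIF-1 prolyl hydroxylase of the nematode. When oxygen is present it hydroxylates the transcription factor HIF-1, which the VHL-1 ubiquitin ligase complex then marks for destruction. Without EGL-9, HIF-1 protein accumulates at normal oxygen and, with its partner AHA-1, switches on genes for life in low oxygen, for hydrogen sulfide handling and for defence against cyanide. The membrane protein RHY-1 restrains HIF-1 through EGL-9, and the cysteine-synthase-like protein CYSL-1 binds EGL-9 and blocks it when sulfide rises. smg-1 encodes a kinase and smg-2 an RNA helicase that NMD requires.

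Total counts ranged from 15415072 to 33169699 in N2 and from 11812796 to 23535109 in egl-9. The first principal component of the 10 libraries held 58.5% of the variance and separated the genotypes, with all N2 libraries on one side and all egl-9 libraries on the other. Pairs of replicates differed by 8.01 to 50.6 times the sampling variance in N2 and by 10.3 to 33.6 times in egl-9, so no pair was merged. The labels call the replicates biological but do not say what was shared between them, so p-values measure the spread between these samples. All 12 defining markers of muscle, pharynx, intestine, neurons, epidermis, germline and oocytes that were checked had at least 11.2 CPM (counts per 1000000, scaled by TMM) in each of the 10 libraries. Of these, myo-3 was called higher and glh-1 lower, at log2 fold changes of 0.39 and -0.37, calls that were lost under 8 and 7 of the 17 other settings. In RNA of whole animals, fewer cells of a type and less RNA per cell cannot be told apart. Of the genes tested, 3230 have exons that overlap another gene on the opposite strand. Whether counting used the strand is not given in the sources used here, so reads of such a gene and its partner may be mixed. This holds for rhy-1, cysl-2, cdo-1, rips-1, cat-4, far-3, col-8, vit-2, cpg-3, tph-1, pck-2, pyk-2, glb-19, elo-7, alh-8, pccb-1, clec-210, cyp-36A1, F26H9.5, dhs-26 and T13F3.6, and, with a gene on the same strand, for gst-4, nhr-57, acdh-2 and smd-1.

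More genes fell than rose in egl-9. Of 16053 genes tested, 1916 (11.9%) were called higher and 3500 (21.8%) lower at an adjusted p under 0.05 in the quasi-likelihood F test of edgeR. With a change of at least 2-fold, 926 genes (5.77%) were higher and 1893 (11.8%) lower. The share of calls that were higher was 35.4%. It was 44.9% with the size factors of DESeq2 and 45.5% in its Wald test, and 49.8% on the deposited log2(TPM + 1) values, so the balance of the directions depended on the scaling. All 5 egl-9 libraries lay above all 5 N2 libraries for 1119 of the genes called higher, and below them for 1974 of those called lower. Genes at low levels carried most of the falls: 20.0% of the 5120 genes with a mean of 1 to 10 CPM were at least 2-fold lower, against 1.76% of the 2041 genes with 100 to 1000 CPM. The rises were spread more evenly, at 7.34% and 3.53% of the same bins.

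**Figure D1:**
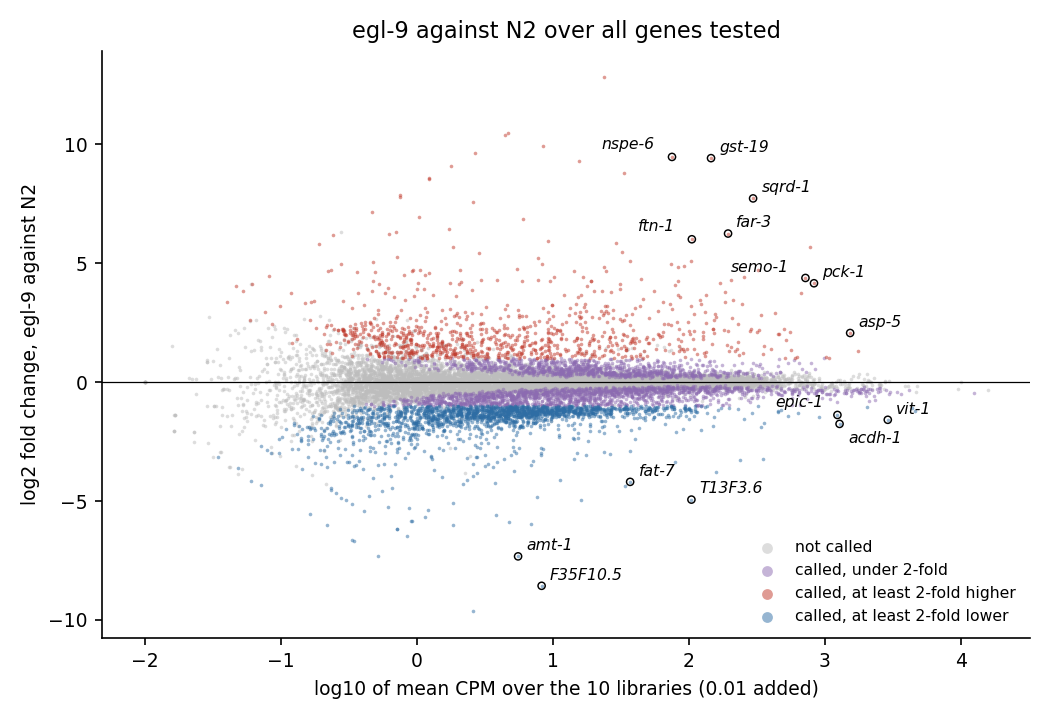
Each point is 1 of the 16053 genes tested, with its mean level over the 10 libraries on the horizontal axis (log10 of CPM, 0.01 added) and its log2 fold change, egl-9 against N2, on the vertical axis. Called genes with changes of at least 2-fold are red (926 higher) or blue (1893 lower), 15 genes of the text are circled, and the values of genes at 0 in one group are fitted and set no bound.

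The same mutation was also present in pairs of strains that share no library with the comparison above. Of the 926 genes with at least 2-fold rises, 519 (56.0%) were called higher when egl-9(sa307) was compared within smg-1 and within smg-2 alike, and 327 (35.3%) in neither. Of the 1893 genes at least 2-fold lower, 1576 (83.3%) were called lower in both and 90 (4.75%) in neither. Calls in the opposite direction numbered 9 of the higher genes in each NMD mutant, and 9 and 6 of the lower genes. Over all genes, 25.1% were called higher and 25.3% lower in smg-1 egl-9, and 19.0% and 21.9% in smg-2 egl-9, each against its own NMD mutant. In egl-9 hif-1 against N2, a comparison that shares the N2 libraries, 9.65% were called higher and 4.85% lower. Of the 926 genes with at least 2-fold rises, 351 (37.9%) were called higher there too. Of the 1893 genes at least 2-fold lower, 78 (4.12%) were called lower there. The shared N2 libraries also chose these genes, which favours calls in the same direction.

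The mutated gene was examined first. egl-9 RNA (WBGene00001178, chromosome V, 10468517 to 10476915 in WBcel235) stood at 20.7, 25.4, 28.3, 22.5 and 25.3 CPM in N2 libraries A to E and at 102, 100.3, 107, 95.1 and 115 CPM in egl-9 libraries A to E. It rose in all egl-9 libraries, with a log2 fold change of 2.09, adjusted p 2e-17, SE 0.12, and without HIF-1 as well it had 17.0 ± 3.48 CPM (mean ± SD, n = 5). The gene is itself a known target of HIF-1, and its RNA level does not check the label. hif-1 RNA (WBGene00001851, chromosome V, 20780407 to 20785260) had 166, 163, 172, 153 and 177 CPM in N2 and 162, 159, 142, 153 and 146 CPM in egl-9. These groups overlapped, and the log2 fold change of -0.13 (SE 0.12, adjusted p 0.444) missed the threshold. In the egl-9 hif-1 libraries it was lower than in N2, at 24.9 ± 7.64 CPM (log2 fold change -2.74, adjusted p 2.05e-20, SE 0.12).

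Among the 11 genes of HIF-1 degradation and the sulfide switch, 5 were called higher and 0 lower, with a median log2 fold change of 0.20 against -0.03 over all genes tested. rhy-1 (WBGene00012324, chromosome II, 9161379 to 9163448), the brake on HIF-1, had 21.6, 28.2, 22.9, 21.2 and 24.7 CPM in N2 and 635, 544, 604, 735 and 596 CPM in egl-9. The lowest egl-9 library was far above the highest N2 library, and the log2 fold change was 4.72, adjusted p 9.73e-20, SE 0.24. cysl-1 (WBGene00007653, chromosome X, 9952579 to 9954533), whose product blocks EGL-9, rose from 36.5, 32.0, 33.5, 42.8 and 37.0 CPM to 180.3, 163, 134, 210.1 and 125 CPM, with a fitted log2 fold change of 2.16, adjusted p 2.73e-16, SE 0.14. Brake and inhibitor thus rose together. aha-1, the partner subunit of HIF-1, and swan-1, which encodes a binding partner of EGL-9, rose by 0.34 and 0.44 in log2, the latter not without N2 replicate C or egl-9 replicate D. The ubiquitin ligase genes vhl-1 and cul-2 did not pass the test, at 0.13 and 0.06. All 8 published HIF-1 targets on a second list rose, with a median log2 fold change of 4.90. Their summed level was 104, 95.2, 95.8, 103 and 105 CPM in N2 and 3882, 3506, 3212, 4601 and 3190.4 CPM in egl-9. It was 78.6 ± 8.70 CPM in egl-9 hif-1, where 0 of the 8 were called higher than in N2. This list checks the activity of HIF-1 in the libraries labelled egl-9.

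**Figure D2:**
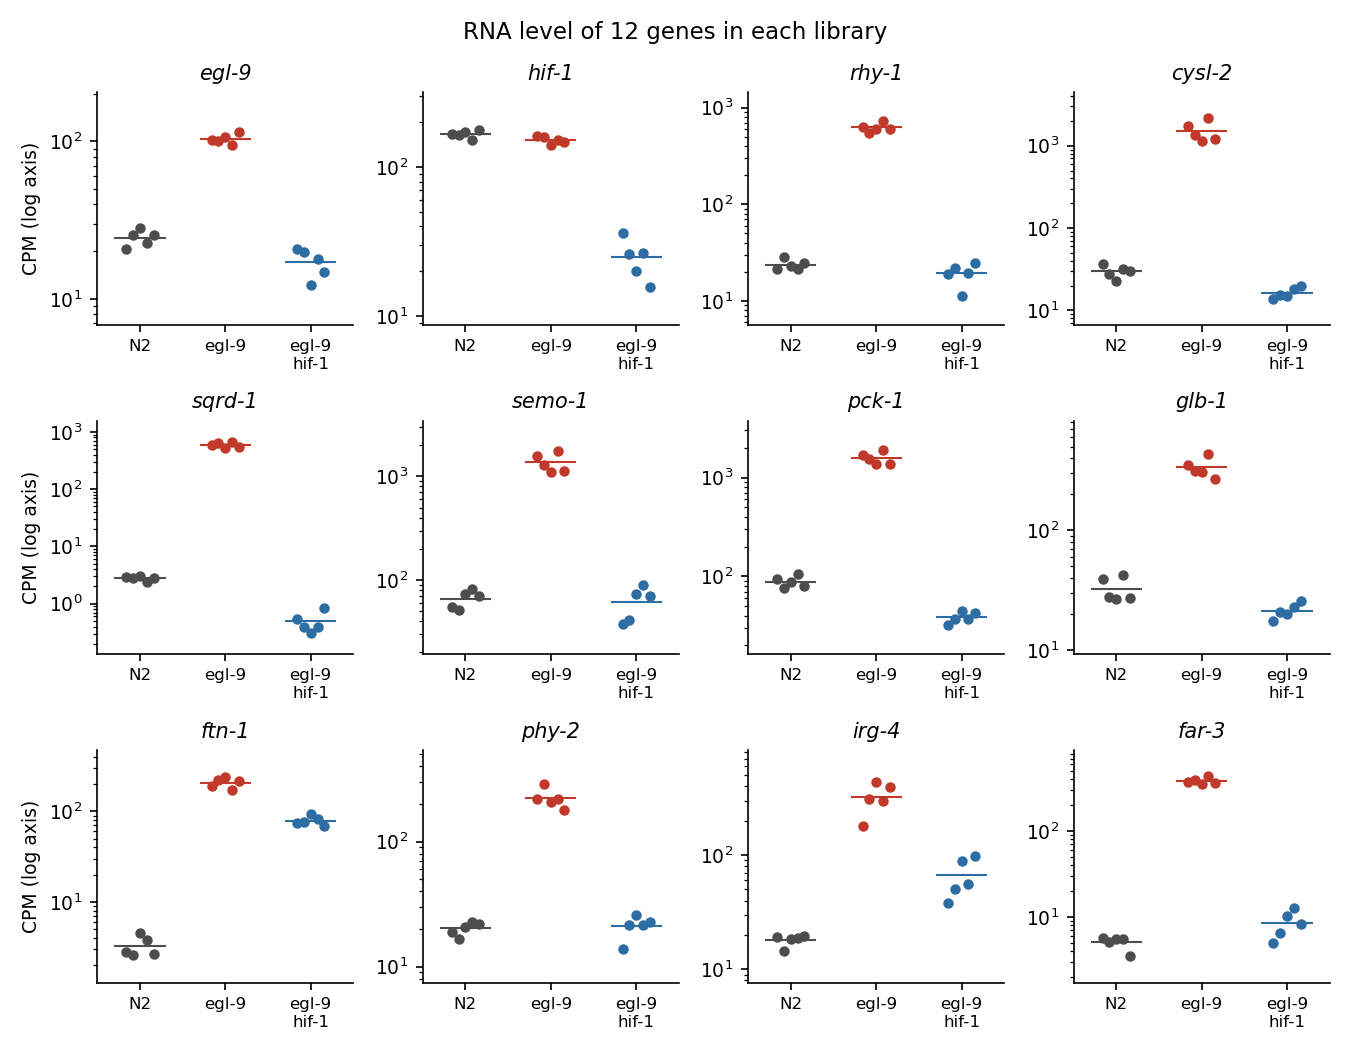
Points are single libraries (A to E from left to right) of N2, egl-9 and egl-9 hif-1, lines are group means, and the vertical axes give CPM on log scales that differ between panels. In 11 of the 12 panels the egl-9 libraries lie above all N2 libraries, while hif-1 is level in N2 and egl-9, and ftn-1 and irg-4 keep a raised level in egl-9 hif-1.

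Genes of sulfide and cysteine metabolism were more often called higher than genes at large. Of 22 tested, 10 (45.5%) were called higher, all 10 by at least 2-fold, and 6 (27.3%) lower. Over all genes 11.9% were higher and 21.8% lower, so the share lower was near that over all genes. The 10 include genes of sulfide oxidation and of cysteine breakdown. sqrd-1 (WBGene00008538, chromosome IV, 14219871 to 14224440) encodes the sulfide-quinone oxidoreductase of the mitochondrion, the entry step of sulfide oxidation. It had 2.89, 2.79, 3.03, 2.38 and 2.87 CPM in N2 and 597, 632, 518, 661 and 541 CPM in egl-9. From near silence it became abundant in all egl-9 libraries, with a fitted log2 fold change of 7.72, adjusted p 9.01e-14, SE 0.60, and it was below N2 in egl-9 hif-1, at 0.4999 ± 0.213 CPM (log2 fold change -2.38, adjusted p 0.0255, SE 0.73). ethe-1, the persulfide dioxygenase of the same route, rose by 2.88 in log2, and mpst-3, a mercaptopyruvate sulfurtransferase, by 4.40. cysl-2 (WBGene00010759, chromosome II, 14492874 to 14494451), which encodes a cyanoalanine synthase, had 37.0, 27.6, 22.9, 32.0 and 29.7 CPM in N2 and 1759.7, 1342, 1130.4, 2183 and 1207 CPM in egl-9 (log2 fold change 5.67, adjusted p 1.35e-14, SE 0.42). cdo-1 (WBGene00018986, chromosome X, 862267 to 863578), cysteine dioxygenase, commits cysteine to breakdown. Its level was 17.6, 15.4, 14.5, 16.4 and 16.7 CPM in N2 and 149, 131, 129, 154 and 112 CPM in egl-9, with no overlap and a log2 fold change of 3.06, adjusted p 2.17e-20, SE 0.15. rips-1 (WBGene00019963, chromosome V, 3772021 to 3774609), named for an interaction with RHY-1 in the sulfide response, rose in egl-9 and was nearly absent without HIF-1. It had 88.6, 89.7, 102, 86.5 and 101 CPM in N2, 1350.0, 1229, 1030.3, 1566 and 1078 CPM in egl-9 and 0.550, 0.742, 1.57, 1.097 and 1.86 CPM in egl-9 hif-1. The rise in egl-9 was 3.74, adjusted p 1.51e-17, SE 0.22 in log2, and the level in egl-9 hif-1 differed from N2 by -6.29, adjusted p 1.5e-20, SE 0.28.

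The members that fell are enzymes that make cysteine from homocysteine, among others. cth-1 (WBGene00009048, chromosome V, 16100680 to 16102750), a cystathionine gamma-lyase, had 17.0, 10.02, 13.4, 12.6 and 14.2 CPM in N2 and 4.18, 3.29, 3.20, 5.90 and 2.68 CPM in egl-9, and every egl-9 library was below every N2 library (log2 fold change -1.81, adjusted p 1.18e-07, SE 0.24). cbs-2, a cystathionine beta-synthase gene, fell by 1.52 on the log2 scale, and mpst-4 fell by 1.63. The other synthase gene went the opposite way: cbs-1 (WBGene00013866, chromosome X, 10054275 to 10057528) had 21.7, 16.6, 17.9, 12.3 and 18.5 CPM in N2 and 52.9, 37.4, 40.4, 58.9 and 42.3 CPM in egl-9. All its egl-9 libraries were above the N2 libraries, and it rose by 1.41, adjusted p 3.09e-11, SE 0.14 in log2. semo-1 (WBGene00012538, chromosome IV, 14051200 to 14056717) encodes a methanethiol oxidase, which releases hydrogen sulfide. It was among the 10 genes with the largest gain in CPM, with 54.8, 51.1, 73.2, 81.9 and 69.7 CPM in N2 and 1579, 1282, 1096, 1769 and 1129 CPM in egl-9. The log2 fold change was 4.37, adjusted p 4.72e-18, SE 0.25, and egl-9 hif-1 was back at 61.9 ± 22.0 CPM.

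Most glycolysis genes rose by less than 2-fold. Of 19 glycolysis genes, 12 were called higher and 2 lower, but only 2 rose by at least 2-fold, and the median log2 fold change was 0.39. The counts of higher genes under the other settings ran from 12 to 14. aldo-1 (WBGene00011474, chromosome III, 13563346 to 13564937), fructose-bisphosphate aldolase, had 123, 136, 149, 175 and 151 CPM in N2 and 303, 359, 295, 355 and 284 CPM in egl-9, a clean separation at a log2 fold change of 1.12, adjusted p 4.71e-10, SE 0.12. gpd-3, glyceraldehyde-3-phosphate dehydrogenase, rose by 1.02, ipgm-1, phosphoglycerate mutase, by 0.71 and enol-1, enolase, by 0.55. pyk-2, a pyruvate kinase gene, and pfk-1.2, a phosphofructokinase gene, fell by 0.72 and 1.22 on the log2 scale. Of 6 genes of gluconeogenesis and the glyoxylate cycle, 1 was called higher and 2 lower, with a median log2 fold change of -0.06. The gene called higher was pck-1 (WBGene00021043, chromosome III, 62888 to 66260), phosphoenolpyruvate carboxykinase, which turns oxaloacetate back toward glucose. It had 92.9, 75.7, 87.8, 106 and 80.1 CPM in N2 and 1677, 1554, 1355, 1904 and 1370.0 CPM in egl-9, with a fitted log2 fold change of 4.15, adjusted p 1.66e-19, SE 0.21. In egl-9 hif-1 it was below N2, at 38.6 ± 4.71 CPM (log2 fold change -1.20, adjusted p 3.86e-05, SE 0.19). Its paralog pck-2, which held 875 CPM in N2 and 762 CPM in egl-9, did not pass the test, but was called lower without egl-9 replicate D, at -0.26 in log2. The third paralog, pck-3, fell by 1.01 on the log2 scale, from 17.6 ± 4.10 to 8.72 ± 3.86 CPM, and icl-1, the glyoxylate cycle enzyme, by 0.91. fbp-1, fructose-1,6-bisphosphatase, and pyc-1, pyruvate carboxylase, did not pass, at 0.12 and 0.09, although fbp-1 was called higher on the deposited log2(TPM + 1) values, at 0.24. Of 13 trehalose and glycogen genes, 6 were called higher and 0 lower, none by 2-fold, among them pygl-1, glycogen phosphorylase, at 0.42 and gyg-2, glycogenin, at 0.48. Without egl-9 replicate D, 3 were called.

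The mitochondrial oxidation genes moved little. Of 18 genes of the tricarboxylic acid cycle, 2 were called higher and 5 lower, and of 41 respiratory chain genes 2 and 3, shares below or near the background. Only cyc-2.2, a cytochrome c gene, reached 2-fold, falling by 1.23 on the log2 scale. sdha-1 and mev-1, subunits of succinate dehydrogenase, rose by 0.73 and 0.40. mdh-2, mitochondrial malate dehydrogenase, and ogdh-1, a subunit of oxoglutarate dehydrogenase, fell by 0.31 and 0.23. The call of ogdh-1 was lost on the deposited log2(TPM + 1) values, at -0.12. With N2 replicate D or egl-9 replicate E left out 3 cycle genes were called lower, and with the size factors of DESeq2 2. Of the mitochondrial chaperones, hsp-60 fell from 561 ± 29.4 to 388 ± 28.9 CPM, and hsp-6, the usual reporter of mitochondrial stress, stood at 665 ± 54.01 and 652 ± 46.9 CPM.

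Propionate breakdown changed in opposite directions in its branches. Of 11 genes, 4 were called higher and 5 lower. The 4 encode the vitamin B12-dependent route: both subunits of propionyl-CoA carboxylase, methylmalonyl-CoA epimerase and methylmalonyl-CoA mutase. The 5 encode the shunt that runs without the vitamin. pcca-1 (WBGene00017864, chromosome X, 7657542 to 7660986), a carboxylase subunit, had 174, 186, 187, 197 and 175 CPM in N2 and 551, 557, 496, 575 and 469.6 CPM in egl-9 (log2 fold change 1.53, adjusted p 2.88e-18, SE 0.09). Its partner pccb-1 rose by 1.19, mce-1, the epimerase, by 1.11 and mmcm-1, the mutase, by 0.82. acdh-1 (WBGene00016943, chromosome I, 6497436 to 6499560), the acyl-CoA dehydrogenase at the head of the shunt, had 1769, 1889, 1890.4, 2206 and 2124 CPM in N2 and 675, 533, 471, 675 and 564 CPM in egl-9. Every egl-9 library was at less than its lowest N2 level, and the log2 fold change was -1.76, adjusted p 2.07e-16, SE 0.11. hach-1 (WBGene00017301, chromosome III, 5555450 to 5557318), the hydrolase of the shunt, went from 559.6, 466, 463, 584 and 573 CPM to 152, 144, 138, 154 and 129.7 CPM (log2 fold change -1.88, adjusted p 1.56e-19, SE 0.10). ech-6, hphd-1 and alh-8, the remaining shunt steps, fell by 1.42, 1.27 and 0.65 on the log2 scale. The shunt genes were also lower than N2 in egl-9 hif-1, by 0.91 for acdh-1 and by 1.06 for hach-1 in log2, while pcca-1 was lower there too, by 0.34. The comparisons share the N2 libraries.

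Of 17 genes of one-carbon and S-adenosylmethionine metabolism, 2 were called higher and 7 lower. ahcy-1 (WBGene00019322, chromosome I, 6836469 to 6838140), which clears S-adenosylhomocysteine, had 2756, 2717, 2582, 2964 and 2770.5 CPM in N2 and 1540.1, 1307, 1078, 1635 and 1117 CPM in egl-9, one of the 10 largest losses in CPM (log2 fold change -1.05, adjusted p 2.26e-09, SE 0.12). smd-1, S-adenosylmethionine decarboxylase, fell by 1.72 on the log2 scale, and mtrr-1, which reactivates methionine synthase, by 0.75. tyms-1, thymidylate synthase, rose by 0.95. Calls among lipid genes were divided. Of 16 fatty acid desaturases and elongases, 1 was called higher and 8 lower, a median log2 fold change of -0.21. fat-7 (WBGene00001399, chromosome V, 7151353 to 7153146), a stearoyl-CoA desaturase, had 93.5, 42.5, 85.4, 70.2 and 59.3 CPM in N2, 4.84, 2.24, 4.71, 2.84 and 4.23 CPM in egl-9 and 215, 121, 60.5, 144 and 128 CPM in egl-9 hif-1. It fell in all egl-9 libraries (log2 fold change -4.20, adjusted p 7.4e-12, SE 0.38), and with hif-1 also mutated it was above N2 (log2 fold change 0.93, adjusted p 0.0434, SE 0.32). elo-7, an elongase, fell by 1.91 and fat-3, a delta-6 desaturase, rose by 0.39. Of 52 genes of acyl-CoA metabolism, 15 were called higher and 21 lower, with a median log2 fold change of 0.08. That balance turned with the size factors of DESeq2, to 21 higher and 19 lower, and on the deposited values, to 18 and 16. The list includes the acyl-CoA dehydrogenase genes acdh-2 and acdh-11 at -4.37 and 0.69. Of 16 lipases and lipid-binding proteins, 3 were called higher and 6 lower, but 3 and 3 with the size factors of DESeq2. Over all genes, too, more were called lower than higher.

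Iron storage rose and iron uptake and export genes fell. Of 15 iron and heme genes, 4 were called higher and 5 lower. ftn-1 (WBGene00001500, chromosome V, 7546468 to 7547579), a ferritin, had 2.79, 2.55, 4.48, 3.79 and 2.67 CPM in N2 and 189, 219.7, 238, 171 and 217 CPM in egl-9, with a fitted log2 fold change of 6.00, adjusted p 6.81e-23, SE 0.24. In egl-9 hif-1 it still had 74.5, 77.2, 92.6, 81.9 and 69.3 CPM, all libraries above N2 (log2 fold change 4.61, adjusted p 4.21e-19, SE 0.23). The second ferritin, ftn-2 (WBGene00001501, chromosome I, 3680180 to 3680927), stood at 269, 298, 336, 407 and 370.5 CPM in N2, 624, 769, 695, 691 and 651 CPM in egl-9 and 660.1, 796, 769, 683 and 784 CPM in egl-9 hif-1. Both strains exceeded N2, with log2 fold changes of 1.03, adjusted p 7.93e-11, SE 0.10 in egl-9 and 1.14, adjusted p 9.18e-11, SE 0.10 in egl-9 hif-1. smf-3 (WBGene00004878, chromosome IV, 2618869 to 2625503), a divalent metal transporter that takes up iron, had 4.35, 3.68, 4.74, 3.27 and 4.799 CPM in N2, 0.299, 0.0747, 0.328, 0.146 and 0.0813 CPM in egl-9 and 0.489, 0.285, 0.314, 0.516 and 0.0809 CPM in egl-9 hif-1. Ferritin was thus high and the transporter low in both strains that carry egl-9(sa307), with log2 fold changes of -4.30, adjusted p 8.75e-13, SE 0.36 for smf-3 in egl-9 and -3.67, adjusted p 1.67e-10, SE 0.34 in egl-9 hif-1. fpn-1.1 and fpn-1.2, which encode ferroportin-like exporters, fell by 1.12 and 4.10 on the log2 scale.

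mtl-1 (WBGene00003473, chromosome V, 6691371 to 6691863), a metallothionein, differed in that its rise was absent without HIF-1: it had 0.317, 1.25, 1.19, 1.03 and 1.40 CPM in N2, 36.02, 57.8, 53.98, 61.6 and 75.5 CPM in egl-9 and 0.489, 0.285, 2.59, 1.03 and 0.769 CPM in egl-9 hif-1 (rise in egl-9 5.86, adjusted p 1.34e-11, SE 0.55, log2). Of 29 globins, proteins that bind oxygen through heme, 4 were called higher and 2 lower. glb-1 (WBGene00014030, chromosome III, 8922399 to 8923290) had 39.0, 27.6, 26.6, 41.9 and 27.0 CPM in N2 and 353, 310.2, 306, 435 and 268 CPM in egl-9. Its libraries did not overlap (log2 fold change 3.36, adjusted p 9.33e-18, SE 0.20), and egl-9 hif-1 was at 21.3 ± 3.13 CPM. glb-13 and glb-19 rose by 1.33 and 1.49 in log2, and glb-6 fell by 0.81. Antioxidant enzymes were more often higher, with 8 of 20 called higher and 2 lower, but 5 higher when N2 replicate B, C or E or egl-9 replicate D was left out. gpx-5 (WBGene00007516, chromosome X, 9584668 to 9586344), of the glutathione peroxidase family, had 53.1, 54.5, 68.6, 63.4 and 56.9 CPM in N2 and 241, 292, 258, 220.2 and 216 CPM in egl-9 (log2 fold change 2.05, adjusted p 3.91e-14, SE 0.16). ctl-3 and ctl-1, catalases, rose by 1.11 and 0.64, whereas gpx-7 fell by 1.88. prdx-2, a peroxiredoxin, did not pass the test at 0.12, but was called higher on the deposited log2(TPM + 1) values, at 0.27.

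Detoxification families had more falls than rises, as did all genes tested (21.8% lower and 11.9% higher), with single members that rose steeply. The shares called lower and higher were 48.6% and 10.8% of glutathione S-transferases and 49.2% and 15.9% of UDP-glucuronosyltransferases. For cytochrome P450 genes they were 30.4% and 14.3%, nearer to the shares over all genes. Of 37 glutathione S-transferases, 4 were called higher and 18 lower, a median log2 fold change of -0.55. gst-19, a published HIF-1 target, went from 0.286, 0.474, 0.329, 0.449 and 0.667 CPM to 256, 274, 289.8, 369.6 and 262 CPM, the largest fold rise of the family. gst-4 (WBGene00001752, chromosome IV, 10142225 to 10143099), the common reporter of the SKN-1 oxidative stress response, went the other way, from 39.2, 33.3, 35.9, 47.2 and 40.8 CPM in N2 to 15.2, 12.02, 15.9, 16.8 and 12.2 CPM in egl-9 (log2 fold change -1.44, adjusted p 5.35e-12, SE 0.13). gst-38 fell by 2.72 on the log2 scale. Of 63 UDP-glucuronosyltransferases, 10 were called higher and 31 lower. ugt-65 rose from 3.38 ± 1.05 to 59.0 ± 7.58 CPM, while ugt-12, ugt-46 and ugt-26 fell by 1.53, 1.35 and 1.92 on the log2 scale. Of 56 cytochrome P450 genes, 8 were called higher and 17 lower. cyp-36A1, a HIF-1 target, rose by 2.86 and cyp-42A1 by 2.37, and cyp-34A8 and cyp-14A1 fell by 1.44 and 1.45. Of 188 nuclear hormone receptors, 19 were called higher and 39 lower, close to the background. The steepest among those named were nhr-57, which rose by 5.09, nhr-62, by 2.73, and nhr-74, which fell by 5.07.

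**Figure D3:**
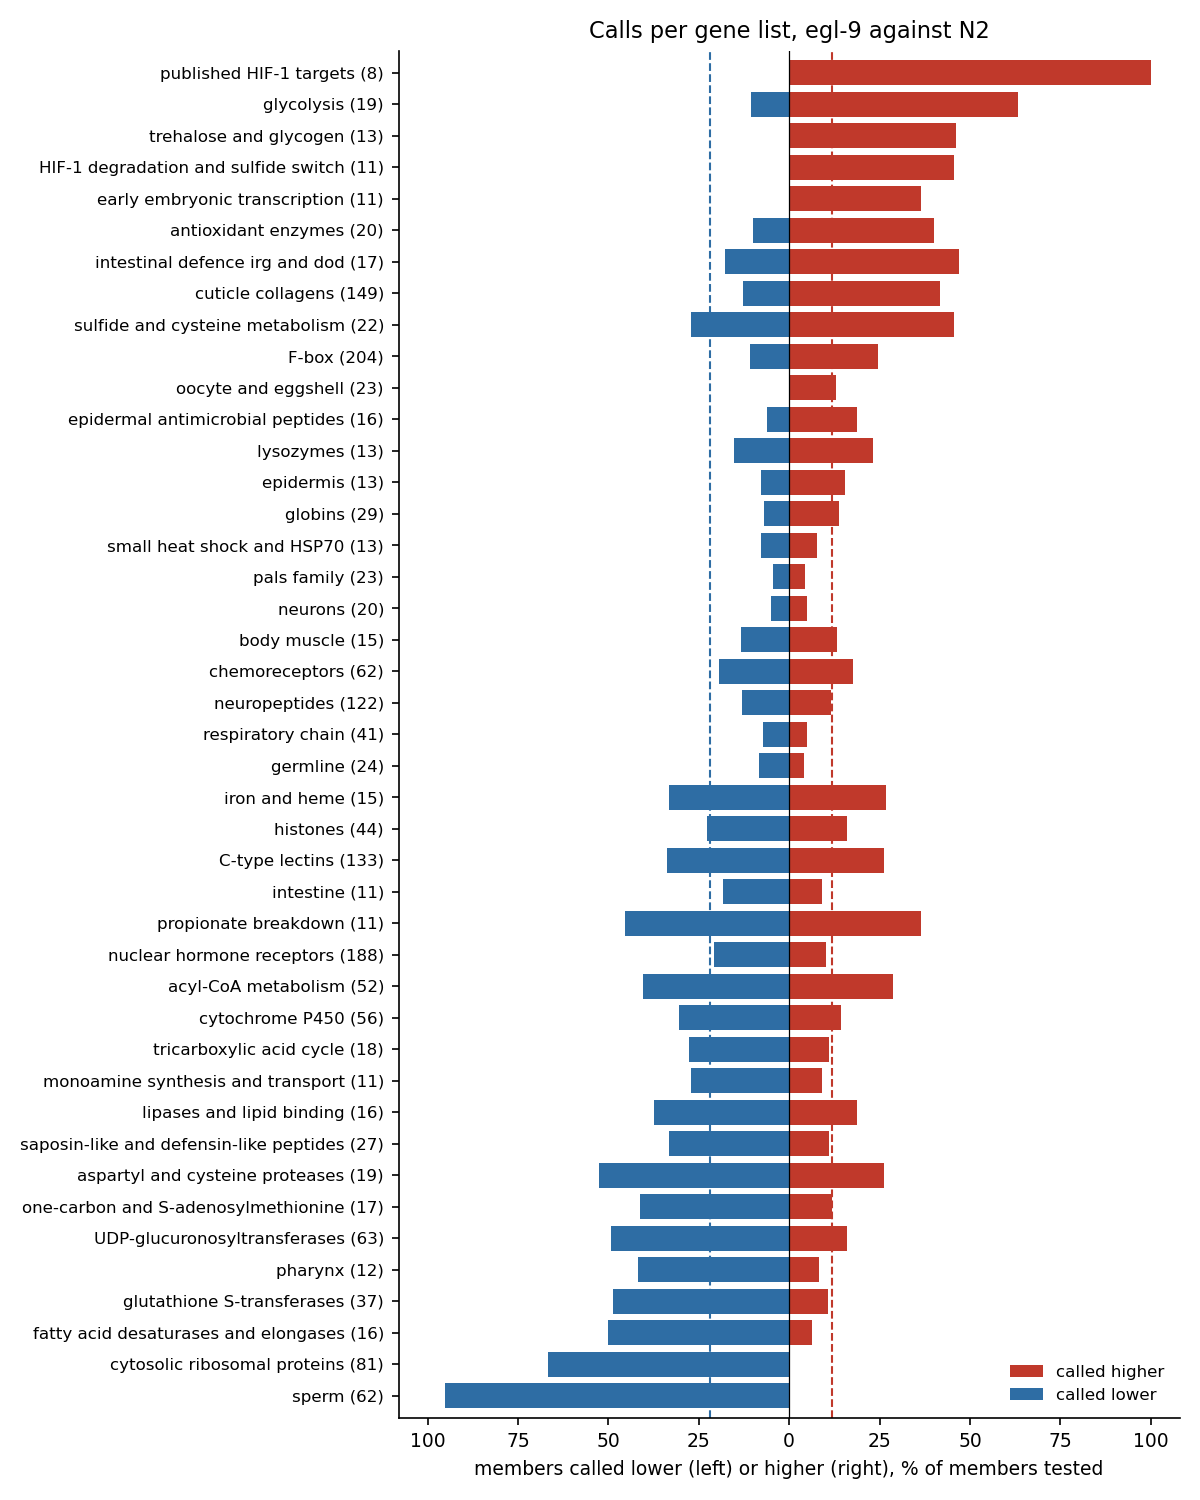
Bars show, for each list with at least 8 genes tested (number in brackets), leaving out families picked after their values were seen, the percentage of members called higher (red, right) and lower (blue, left) in egl-9 against N2. Dashed lines mark the shares over all 16053 genes, 11.9% higher and 21.8% lower. Lists are ordered by the share higher minus the share lower. Of those shown, the published targets and glycolysis stand at the top and the ribosomal proteins and sperm genes at the bottom.

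Several defence genes of the intestine rose steeply. Of 17 irg and dod genes, named for infection response and for control by the insulin pathway, 8 were called higher and 3 lower. The median log2 fold change of the list was 0.39. With hif-1 also mutated, 8 of the 17 were called higher than N2 and 1 lower, at a median of 0.69. Both counts use the same N2 libraries, and whether the same members were called each time was not tested. irg-4 (WBGene00008584, chromosome IV, 12435833 to 12438236) had 19.3, 14.5, 18.5, 18.6 and 19.5 CPM in N2, 179, 307, 439, 296 and 394 CPM in egl-9 and 38.2, 50.3, 88.8, 55.9 and 98.7 CPM in egl-9 hif-1. Both strains with egl-9(sa307) exceeded N2 in every library, egl-9 more so (log2 fold change 4.16, adjusted p 3.82e-16, SE 0.27 in egl-9 and 1.88, adjusted p 1.18e-06, SE 0.25 in egl-9 hif-1). irg-5 and dod-24 rose by 5.08 and 2.83, and dod-17 and irg-1 fell by 3.22 and 2.79 on the log2 scale. Of 13 lysozymes, enzymes that cut bacterial walls, 3 were called higher and 2 lower. lys-7 (WBGene00003096, chromosome V, 3481432 to 3482600) had 11.3, 9.25, 7.45, 23.5 and 15.9 CPM in N2 and 166, 160.2, 119, 199.9 and 153 CPM in egl-9 (log2 fold change 3.57, adjusted p 2.66e-17, SE 0.22). lys-1 and lys-2 rose by 1.38 and 2.03, and lys-5 fell by 1.83. Of 133 C-type lectins, 35 (26.3%) were called higher and 45 (33.8%) lower, both above the 11.9% and 21.8% over all genes. Their summed level was 2997 ± 167 CPM in N2 and 4101 ± 259 CPM in egl-9. clec-210 and clec-222 rose by 4.84 and 3.66, and clec-139 and clec-173 fell by 3.06 and 2.77. Among 27 saposin-like and defensin-like peptides, 3 were called higher and 9 lower. spp-9, at 3 counts or fewer in every N2 library, was at least 29.6-fold higher in egl-9, and spp-17 fell from 143 ± 33.5 to 37.0 ± 6.01 CPM. Of 16 epidermal antimicrobial peptides 3 and 1 were called, and of the 23 pals genes, which respond to intracellular pathogens, 1 and 1.

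Digestive proteases changed in both directions. Of 19 aspartyl and cysteine proteases, 5 were called higher and 10 lower. asp-5 (WBGene00000218, chromosome V, 8272385 to 8274044), an aspartyl protease, gained more CPM than any other called gene, from 495, 548, 639.7, 639 and 638 CPM in N2 to 2109.8, 2802, 2451, 2414 and 2573 CPM in egl-9 (log2 fold change 2.06, adjusted p 7.87e-17, SE 0.13). asp-6 and asp-12 rose by 1.32 and 3.43. asp-8 (WBGene00019105, chromosome V, 3024549 to 3027931) fell instead, from 30.9, 28.1, 40.8, 29.0 and 26.4 CPM to 1.08, 0.747, 1.02, 1.09 and 1.06 CPM, and stood at 4.64, 5.02, 5.65, 3.35 and 6.15 CPM in egl-9 hif-1, between both groups (log2 fold change in egl-9 -4.94, adjusted p 1.27e-22, SE 0.21). cpr-5, a cathepsin B-like protease, fell by 1.17 on the log2 scale.

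Of 4 genes for collagen prolyl hydroxylase, 2 were called higher and 0 lower, and more cuticle collagens were called higher than lower. phy-2 (WBGene00004025, chromosome IV, 12211097 to 12215987) and dpy-18 (WBGene00001077, chromosome III, 11372886 to 11377980) encode the catalytic subunits of collagen prolyl hydroxylase, which stabilises the collagen triple helix. phy-2, a HIF-1 target, had 19.0, 16.8, 21.0, 22.9 and 22.1 CPM in N2 and 219, 289.7, 209, 219 and 177 CPM in egl-9. dpy-18 had 23.5, 23.2, 21.9, 32.5 and 20.5 CPM in N2 and 144, 181, 124, 146 and 107.8 CPM in egl-9. Both separated without overlap, with log2 fold changes of 3.45, adjusted p 5.69e-23, SE 0.14 for phy-2 and 2.53, adjusted p 1.67e-10, SE 0.26 for dpy-18. pdi-2, the partner subunit, and phy-3 did not pass the test, at 0.04 and -0.17. Of 149 cuticle collagens tested, 62 were called higher (57 at least 2-fold) and 19 lower (6 at least 2-fold), with a median log2 fold change of 0.95. col-12 (WBGene00000601, chromosome V, 10423898 to 10425198) had 275, 151, 274, 135 and 211 CPM in N2 and 871, 1343, 984, 596 and 668 CPM in egl-9 (log2 fold change 2.09, adjusted p 4.49e-05, SE 0.40). col-150 rose by 1.73 on the log2 scale. col-78, at 3 counts or fewer in all N2 libraries, was at least 54.3-fold higher in egl-9. col-8 (WBGene00000597, chromosome III, 7019583 to 7020600), by contrast, fell from 1264, 1268, 1249, 1650.5 and 1239 CPM to 569, 304, 432, 673 and 434 CPM (log2 fold change -1.47, adjusted p 4.24e-10, SE 0.15), and col-106 and col-122, abundant collagens, fell by 0.84 and 0.75. The summed level of all 149 was 52720.0 ± 3579 CPM in N2 and 54470.5 ± 5907 CPM in egl-9, so the sum did not follow the count of calls. The 6 furrow collagens, such as dpy-7 and dpy-10, gave 0 calls in edgeR, DESeq2 and the limma fit.

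Collagen calls were also counted in the other pairs of strains. In egl-9 hif-1 against N2, which shares the N2 libraries, 64 of the 149 collagens were called higher and 3 lower. With egl-9(sa307) inside smg-1, 13 were called higher and 19 lower, and inside smg-2, 10 and 13. Of the 57 collagens with at least 2-fold rises, 4 and 5 were called higher with egl-9(sa307) inside smg-1 and smg-2, with median log2 fold changes of -0.09 and -0.11. Since the 57 were chosen for their rise over N2, smaller values in other pairs are favoured by the choice, and the difference carries no test here. Their summed level was 4958, 3452, 5175, 3571 and 3965 CPM in N2 libraries A to E and 13689.8, 21330.0, 15441, 10623 and 10671 CPM in egl-9, values that chose the genes. It was 8181, 13726, 26896, 6307 and 16617 CPM in egl-9 hif-1, 11603, 13348, 23241, 6378 and 12686 CPM in smg-1 and 8937, 8393, 18408, 5062 and 8762 CPM in smg-2. The choice of genes favours low sums in N2, so no order of the strains is drawn from them. Replicate D was the lowest library of every genotype of the study except N2, where replicate B was lowest. Gene families outside the list also had many calls higher in egl-9 and were looked at after their values were seen.

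Those families were abu, idpb and idpc. Of 12 abu genes 9 were called higher than N2 in each strain with egl-9(sa307) and intact NMD, and of 5 idpb and 7 idpc genes all were, in both strains. None of the abu, idpb and idpc genes was called higher with egl-9(sa307) in smg-1 or smg-2. The summed level of the abu genes was 52.9, 51.1, 78.2, 43.3 and 25.997 CPM in N2 and 249.5, 548, 338, 63.6 and 168 CPM in egl-9, a wide spread in which egl-9 replicate D lay within the N2 range. N2 had the lowest mean abu sum, 50.3 CPM, against 273 for egl-9 and 303 for egl-9 hif-1. The NMD mutants with intact egl-9 were not low, with smg-1 at 263 ± 159 and smg-2 at 214 ± 190. With egl-9(sa307) added, their means were 146 and 135. For idpc the means were 15.9 (N2), 88.3 (egl-9), 88.4 (smg-1) and 82.3 (smg-2). The families were picked after calls over N2 were seen, which favours low N2 values, and the order of the genotypes was not tested. Without egl-9 replicate B or N2 replicate C, 2 of the idpb genes were called, and without N2 replicate E 3. Of 30 nas genes, which encode astacin metalloproteases, 15 were called higher and 1 lower. In egl-9 hif-1 against N2, 13 nas genes were called higher and 0 lower. With egl-9(sa307) inside smg-1, 4 were called higher and 5 lower, and inside smg-2, 3 and 5. Their summed level was nonetheless higher with egl-9(sa307) in each pair. It was 201 ± 12.2 CPM in N2 and 435 ± 42.0 CPM in egl-9. In smg-1 and smg-1 egl-9 it was 344 ± 61.4 and 622 ± 75.8 CPM, and in smg-2 and smg-2 egl-9 364 ± 30.2 and 635 ± 76.8 CPM.

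**Figure D4:**
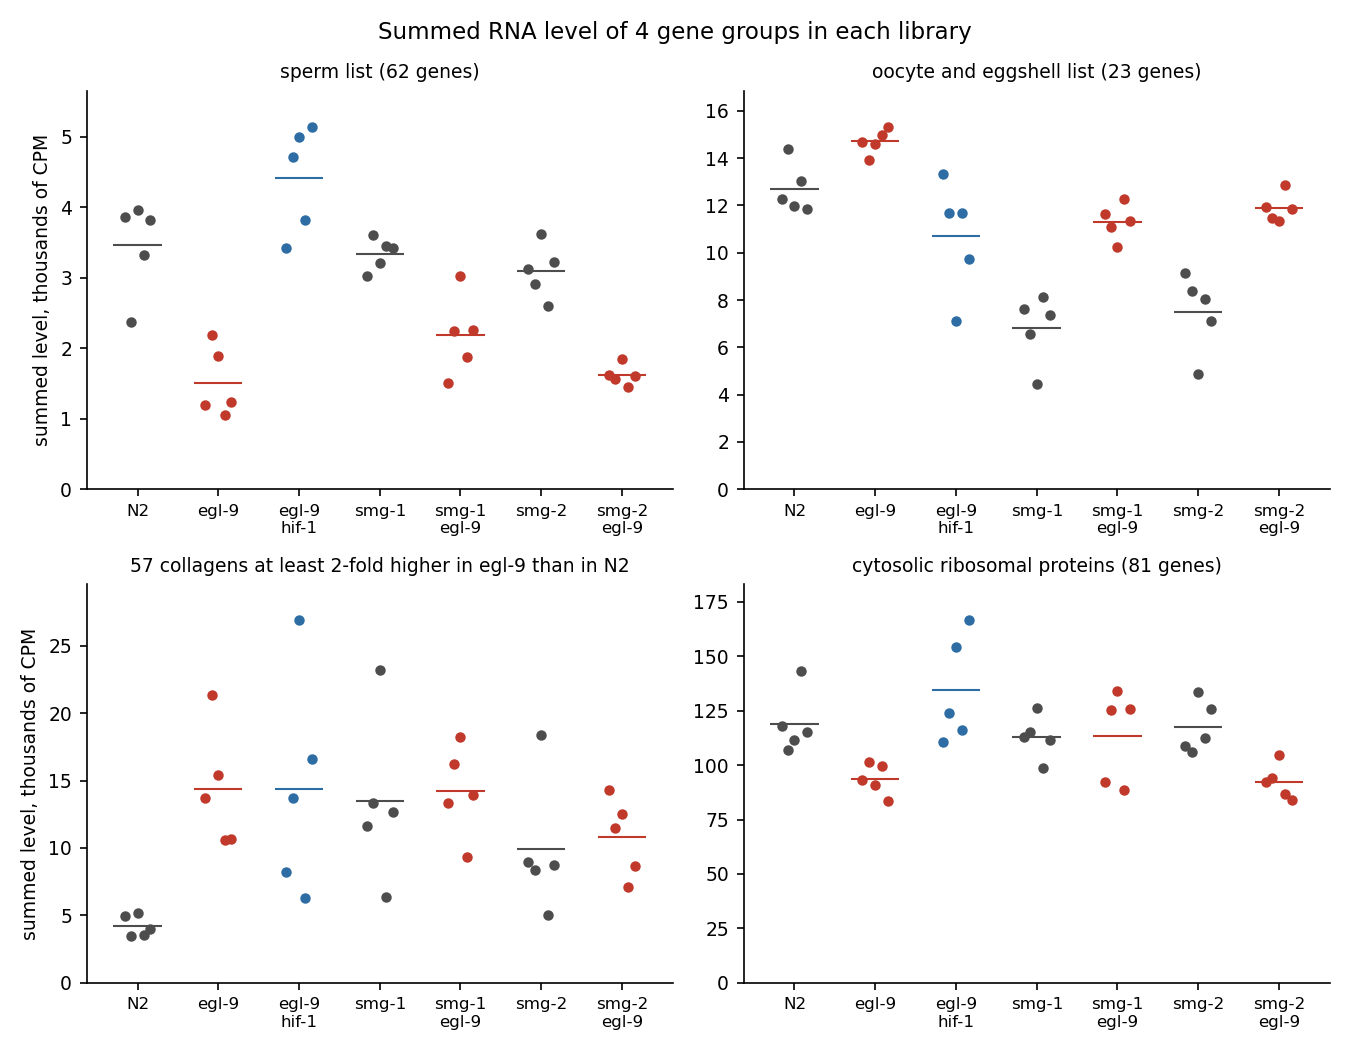
Points are single libraries (A to E from left to right within a genotype) and lines are genotype means. The vertical axes give the summed level of a gene group in units of 1000 CPM and start at 0. The sperm list is lower in each strain with egl-9(sa307) and intact hif-1 than in its control, the 57 collagens, chosen for their rise over N2, have their lowest mean there, and the ribosomal proteins are lower in egl-9 and smg-2 egl-9.

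Sperm genes fell almost as a block. Of 62 tested, 0 were called higher and 59 lower (54 at least 2-fold), with a median log2 fold change of -1.18 and 58 to 60 lower whichever single library was left out. Their summed level was 3866, 2367, 3967, 3322 and 3825 CPM in N2 and 1189.6, 2185, 1887, 1061 and 1241 CPM in egl-9. Replicate B of egl-9, the highest, was just below N2 replicate B, the lowest, and all other libraries were further apart. msp-31 (WBGene00003429, chromosome II, 4916179 to 4916562), a gene of major sperm protein, had 141, 80.2, 139, 119 and 130.2 CPM in N2 and 33.1, 65.0, 54.3, 33.1 and 36.8 CPM in egl-9 (log2 fold change -1.45, adjusted p 1.1e-07, SE 0.19). The msp genes are near-identical copies, so the share of reads given to each is uncertain, while their sum is less so. In egl-9 hif-1 the summed level was 3419, 4712, 5001, 3815 and 5145 CPM, and 5 of the 62 were called higher than N2 and 0 lower. With egl-9(sa307), 49 of the 62 were called lower in smg-1 and 55 in smg-2.

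Markers of the other germline stages did not fall with the sperm genes. Of 23 oocyte and eggshell genes, 3 (13.0%) were called higher and 0 lower, against 11.9% and 21.8% over all genes. The summed level was 12259, 14368, 11960.4, 13019.5 and 11861 CPM in N2 and 14682, 13933, 14599, 14978 and 15326 CPM in egl-9. cpg-3, an eggshell proteoglycan, rose by 0.61 and cav-1, a caveolin of the germline, by 1.52, a call lost without any 1 of N2 replicates A, C and E and egl-9 replicates A and D, or on the deposited log2(TPM + 1) values. With only the 10 libraries in the fit, 13 of the 23 were called higher. In smg-1 and smg-2 22 and 21 were called higher with egl-9(sa307). Of 24 germline genes 1 was called higher and 2 lower. Of 11 genes of early embryonic transcription, 4 were called higher and 0 lower. vet-2 and vet-6, expressed in very early embryos, had 6.80 ± 2.17 and 1.39 ± 0.958 CPM in N2 and 15.6 ± 6.43 and 7.42 ± 6.11 CPM in egl-9, and hnd-1 rose by 1.51. Their summed level was 115, 177, 141, 171 and 140.4 CPM in N2 and 180.3, 147, 190.1, 206 and 183 CPM in egl-9, groups that overlapped. Levels of sperm markers thus moved with the genotype, while the share of oocyte genes called higher was near that over all genes. The part of sperm, oocyte and embryo markers in the other results was not tested.

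Several yolk genes fell as well, and ribosomal protein genes fell by smaller steps. Of 6 vitellogenins, which encode the yolk proteins made in the intestine, 4 were called lower and 0 higher. vit-1 (WBGene00006925, chromosome X, 7727889 to 7733168) had 4005, 4735, 4656, 4404 and 3913 CPM in N2 and 1506, 1191, 1483, 1405 and 1644 CPM in egl-9 (log2 fold change -1.59, adjusted p 8.67e-10, SE 0.17). vit-3 and vit-4 fell by 1.23 and 1.07 on the log2 scale and vit-2 by 0.46 (not called without egl-9 replicate C or on the deposited log2(TPM + 1) values), while vit-5 and vit-6, at -0.31 and -0.31, did not pass. With the replicate block both were called lower, at -0.32 each (adjusted p 0.029 and 0.0349 in edgeR). The near-identical vit-3 and vit-4 may share reads. Summed over the 6, the level was 58863 ± 4642 CPM in N2 and 39851 ± 4707 CPM in egl-9. Of 81 cytosolic ribosomal protein genes, 54 were called lower and 0 higher, 1 of them by 2-fold, with a median log2 fold change of -0.35. rps-10 and rps-14 fell by 0.51 and 0.46 on the log2 scale, and rpl-3 did not pass at -0.17. This count depended on settings: 25 were called lower with the size factors of DESeq2, 22 without N2 replicate D and 28 without egl-9 replicate E, and 0 higher in each. With egl-9(sa307), 1 was called lower in smg-1 and 59 in smg-2. Among markers of the soma, of 11 intestinal genes 1 was called higher and 2 lower, of 15 body muscle genes 2 and 2, of 13 epidermal genes 2 and 1, of 20 neuronal genes 1 and 1, and of 12 pharyngeal genes 1 and 5. The summed level of the pharyngeal genes was 1142 ± 192 CPM in N2 and 837 ± 92.0 CPM in egl-9, and their median log2 fold change was -0.36.

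Among neural genes, 1 peptide gene switched on. Of 122 neuropeptide and insulin-like genes, 14 (11.5%) were called higher and 16 (13.1%) lower, against 11.9% and 21.8% over all genes. ins-19 (WBGene00002102, chromosome II, 3126037 to 3126441), an insulin-like peptide gene, had 0 counts in all N2 and all egl-9 hif-1 libraries and 9.08, 5.60, 7.05, 15.5 and 7.31 CPM in egl-9. It was at least 51.5-fold higher than the floor of 3 counts per library. ins-6 and nlp-26 fell by 1.29 and 1.53 on the log2 scale, and nlp-2 and nlp-21 rose by 1.38 and 0.60. Of 11 genes of monoamine synthesis and transport, 1 (9.09%) was called higher and 3 (27.3%) lower. cat-4 (WBGene00000298, chromosome V, 10564880 to 10566464), the GTP cyclohydrolase that makes the cofactor for serotonin and dopamine synthesis, had 59.7, 51.5, 51.1, 63.1 and 74.1 CPM in N2 and 16.7, 16.6, 12.6, 16.6 and 11.1 CPM in egl-9. It fell in all egl-9 libraries (log2 fold change -2.02, adjusted p 5.58e-14, SE 0.16). tph-1, the serotonin synthesis enzyme, rose by 1.48 from 0.406 ± 0.0887 CPM, and bas-1 and tbh-1, which act in dopamine, serotonin and octopamine synthesis, fell by 0.76 and 0.66. Of 1308 chemoreceptor genes in the table, 62 passed the filter on low counts. Of these, 11 (17.7%) were called higher and 12 (19.4%) lower, with str-245 at 3.60. Heat shock genes gave 1 call in each direction among 13, with hsp-12.3 at 2.08. Of 204 F-box genes, 50 were called higher and 22 lower, but 29 higher without N2 replicate C and 31 without egl-9 replicate D or N2 replicate E. The fbxb genes, picked after their values were seen, had 23 calls higher among 58 tested, and their summed level of 18.9, 26.04, 7.45, 26.4 and 10.1 CPM in N2 and 60.1, 17.8, 33.8, 85.7 and 40.6 CPM in egl-9 varied widely within both groups. Their near-identical copies can share reads. Of 44 histone genes, also near-identical, 7 were called higher and 10 lower.

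Short peptide genes were among the 12 largest rises, beside gst-19 and sqrd-1. The nspe genes, a family of short nematode-specific peptides that was singled out after its values were seen, were called higher in 7 of 7 tested. Of these, 5 are neighbours on chromosome II, between 12612518 and 12620864. nspe-6 (WBGene00012603, chromosome II, 12615828 to 12616181) had 0.444, 0.0593, 0.198, 0.128 and 0 CPM in N2, 155, 147, 160.3, 154 and 135 CPM in egl-9 and 2.69, 2.23, 4.70, 1.94 and 3.72 CPM in egl-9 hif-1. It was near silent in N2 and at a steady level in egl-9 (log2 fold change 9.46, adjusted p 4.13e-18, SE 0.54). nspe-3, with 0 counts in N2, was at least 273-fold higher. All 7 were also called higher with egl-9(sa307) in smg-1 and in smg-2. T05B4.13 and Y38E10A.9, at the floor in N2, were at least 97.4-fold and 179-fold higher, and B0462.4 rose from 0.163 ± 0.150 to 66.2 ± 11.2 CPM. far-3 (WBGene00001387, chromosome V, 12996787 to 12997522), a fatty acid and retinol binding protein, had 5.65, 5.04, 5.47, 5.52 and 3.47 CPM in N2 and 377, 390.0, 354, 433 and 360.1 CPM in egl-9. N2 replicate E lay apart below the other N2 libraries, and the groups did not overlap (log2 fold change 6.24, adjusted p 1.12e-18, SE 0.34). F26H9.5, among the 10 largest gains in CPM, rose from 103 ± 6.30 to 761 ± 131 CPM.

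The deepest falls reached the detection floor. F35F10.5 (WBGene00018055, chromosome V, 3284929 to 3285902) had 21.3, 15.6, 17.4, 15.0 and 13.2 CPM in N2, 0.119, 0, 0.0410, 0 and 0 CPM in egl-9 and 10.8, 11.3, 17.2, 11.6 and 12.8 CPM in egl-9 hif-1. It was at least 83.4-fold lower in egl-9 and close to the level of N2 when hif-1 was also mutated (log2 fold change -0.38, adjusted p 0.203, SE 0.21). amt-1 (WBGene00000133, chromosome X, 4571437 to 4573914), an ammonium transporter, had 8.73, 11.5, 12.4, 12.1 and 10.5 CPM in N2 and 0, 0, 0.0820, 0.146 and 0.0813 CPM in egl-9, at least 55.8-fold lower, and 14.8 ± 3.29 CPM in egl-9 hif-1. T13F3.6 (WBGene00011753, chromosome V, 16270300 to 16271221) had 158, 162, 225, 244 and 222 CPM in N2 and 8.96, 3.43, 6.72, 9.11 and 4.39 CPM in egl-9 (log2 fold change -4.94, adjusted p 5.72e-20, SE 0.25). dhs-26, a short-chain dehydrogenase, fell from 14.7 ± 4.05 to 0.507 ± 0.226 CPM, C30G12.2 from 295 ± 44.1 to 21.1 ± 6.23 CPM and T22B7.7 from 144 ± 15.9 to 14.0 ± 1.73 CPM. The 10 largest losses in CPM included vit-1 to vit-4, ahcy-1, acdh-1 and epic-1, which fell from 1785 ± 206 to 684 ± 70.9 CPM.

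**Figure D5:**
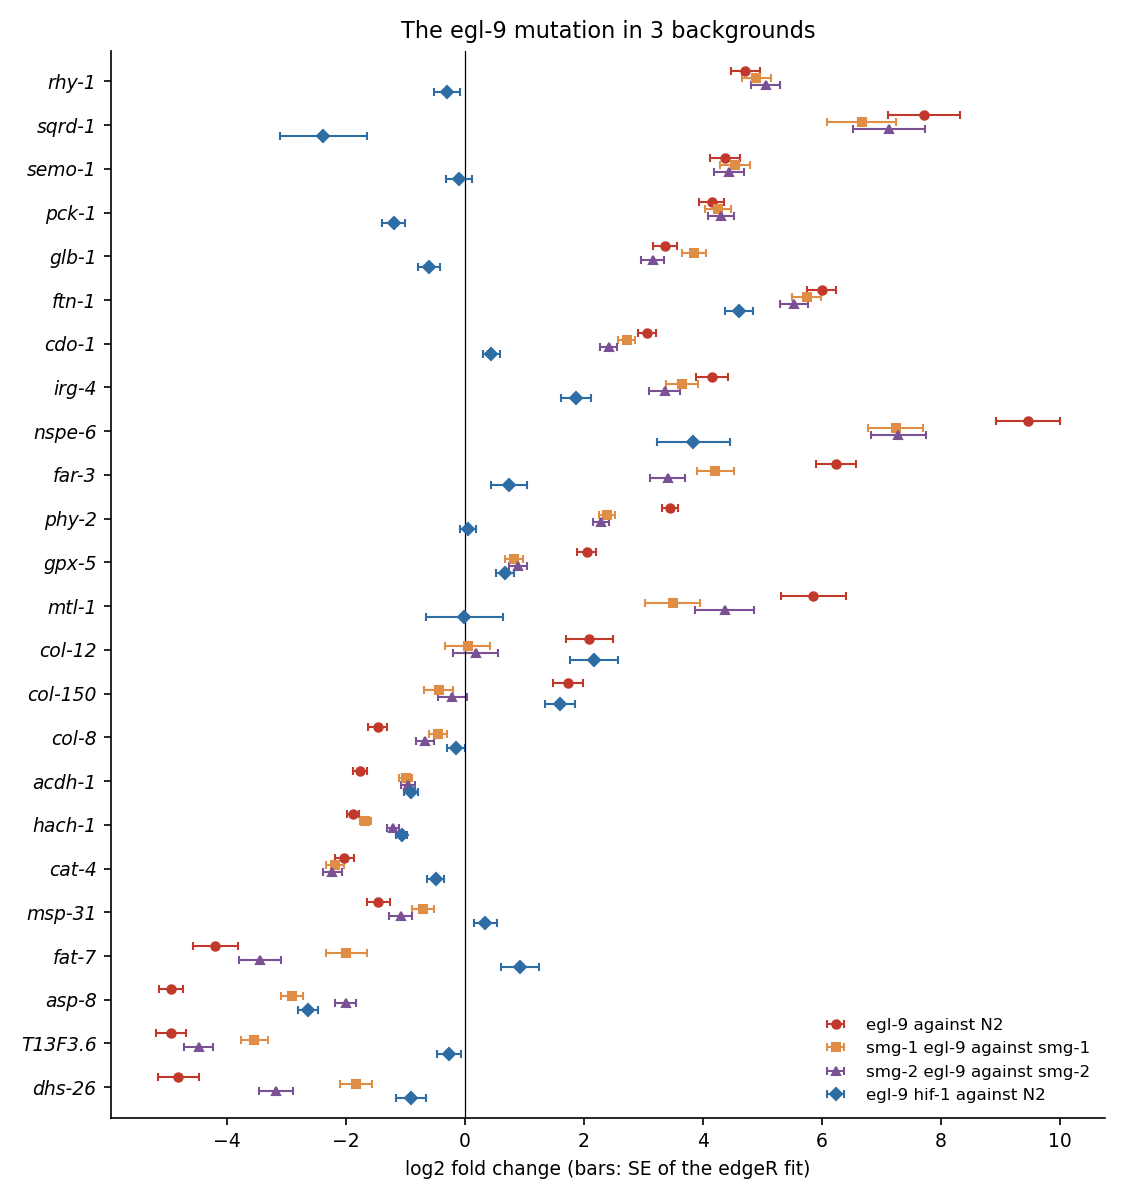
For 24 genes of the text, points give the log2 fold change of egl-9(sa307) in N2 (red), in smg-1 (orange) and in smg-2 (purple), while blue points compare egl-9 hif-1 with N2. Bars are standard errors of the edgeR fit over 45 libraries. Red, orange and purple points lie on the same side of 0 except for col-150, which is below 0 in the NMD mutants, and ftn-1, irg-4 and asp-8 keep blue points away from 0.

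The effect of egl-9(sa307) on the central genes was similar in size in the independent pairs for some genes and smaller for others. In log2, rhy-1 rose by 4.72 in N2, 4.90 in smg-1 and 5.06 in smg-2, pck-1 by 4.15, 4.26 and 4.30, and semo-1 by 4.37, 4.55 and 4.45. The interaction was not called for these genes. For phy-2 the rises were 3.45, 2.39 and 2.29, for gpx-5 2.05, 0.82 and 0.89, and for far-3 6.24, 4.21 and 3.41, and the interaction was called in both NMD mutants. asp-8 fell by 4.94, 2.91 and 2.01 on the log2 scale and acdh-1 by 1.76, 1.00 and 0.95, again with both interactions called.

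Changed genes were unevenly spread over the chromosomes. Chromosome X held 13.9% of the genes tested but 5.28% of those at least 2-fold lower, 100 genes or 4.48% of the X genes tested, whereas chromosome IV held 17.2% of the genes tested and 23.4% of those lower. Chromosome V held 20.0% of the genes tested and 28.1% of those at least 2-fold higher, 260 genes. Of 680 pseudogenes tested, 164 (24.1%) were at least 2-fold lower and 27 (3.97%) higher. Runs of at least 4 neighbouring tested genes that all changed by at least 2-fold numbered 11 for rises, with 49 genes, and 40 for falls, with 207 genes. The longest run of falls held 12 genes on chromosome IV between 9832488 and 9853609, among them msp-56, msp-10, nspd-2 and ssp-10, genes of sperm. The longest run of rises held 7 genes on chromosome V between 9616031 and 9631012, namely pqn-63, idpc-7, idpc-6, idpc-5, idpc-4, idpc-3 and col-146.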

How the data were processed

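Polyadenylated RNA from whole worms was made into libraries with a directional kit and 12 cycles of amplification, and sequenced as paired reads of 75 nt, per the labels' protocols. Reads were checked with FastQC, aligned with STAR 2.7.9a and quantified with RSEM 1.3.0 on WBcel235, and DESeq2 was used, per the submitters' processing notes. The gene annotation and the strand setting are not given in the sources used here. The authors deposited 1 table of estimated counts, which hold whole numbers as deposited, and 1 table of log2(TPM + 1) values for all 45 libraries and 46926 genes. Gene positions are those of Ensembl release 115.

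Genes with enough counts in at least 1 genotype were kept by the edgeR filter (16053 genes; the others hold 0.0372% of counts). Counts were scaled by TMM and fitted with 9 genotype means (36 residual degrees of freedom) in edgeR 4.0.16 (R 4.3.3) and tested with its quasi-likelihood F test, with Benjamini-Hochberg adjustment over all genes. CPM is the count per 1000000 after TMM scaling. It does not correct for length, so levels are not compared between genes. Called means an adjusted p under 0.05. Where all libraries of a group held 3 counts or fewer, the other group's mean was set against 3 counts per library, a bound that covers counting error only. On simulated counts with 200 changed genes among 16053, the comparison of egl-9 with N2 recovered 73 of 98 changed 2-fold and 94 of 102 changed 4-fold, with 5 false calls. Alternatives used DESeq2 1.42.0 (size factors, Wald test), limma 3.58.1 on the deposited log2 values, other filters, 10 libraries only, the replicate letter, and each library left out.

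The lists and tests were chosen with earlier results of these data known, and lists carry no test of their own. All members of lists with 12 or fewer tested genes could be named; from longer lists, the 3 called members with the smallest p in each direction and the member with the highest mean CPM; over all genes, the 12 largest rises and falls among called genes with at least 10 CPM in the higher group, and the 10 largest gains and losses in CPM. The defining markers and the families abu, idpb, idpc, nas, fbxb and nspe stand outside that rule, and the families were chosen after their values were seen.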

Additional observations from a re-analysis of the deposited data

Results flagged for a closer look

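Of 98 groups of 5 libraries (42 genes described library by library and 7 summed lists, in N2 and in egl-9), 5 held a library whose gap to its neighbour exceeded 0.71 of the group's range, where chance gives about 1 group in 20. Replicate D of N2 was the highest for dpy-18, at 32.5 CPM, and for col-8, at 1650.5 CPM. Replicate B of N2 was the lowest for irg-4, at 14.5 CPM, and replicate E of N2 for far-3, at 3.47 CPM. In egl-9, replicate B was the lowest for asp-8, at 0.747 CPM. In none of the 5 did the library reach the range of the other genotype.

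The effect of egl-9(sa307) in an NMD mutant was compared with its effect in N2 by the interaction term of the edgeR fit for the 42 genes, with p adjusted over all 16053 genes. Each gene was tested once in smg-1 and once in smg-2, and over both the difference was called in 25 cases. Some genes count in both mutants. The share called over all genes is not set beside this count, so no excess is read from it. Many of the 42 were named for large changes between egl-9 and N2, a comparison that enters the difference, so the choice favours smaller effects in the NMD mutants, and their direction is given as a description. Differences are given in log2, as the effect in the NMD mutant minus that in N2.

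Among genes that rose in egl-9, cysl-1 had differences of -0.79 (adjusted p 0.00995) in smg-1 and -0.84 (adjusted p 0.00713) in smg-2. For phy-2 they were -1.06 (adjusted p 0.00023) and -1.17 (adjusted p 3.72e-05), and for gpx-5 -1.23 (adjusted p 0.000352) and -1.16 (adjusted p 0.000597). For far-3 they reached -2.03 (adjusted p 0.00226) and -2.83 (adjusted p 9.52e-06), and for col-12 -2.05 (adjusted p 0.0178) and -1.91 (adjusted p 0.0368). Called in smg-1 only were rips-1 at -0.91 (adjusted p 0.0376), mtl-1 at -2.37 (adjusted p 0.0276) and ftn-2 at 0.46 (adjusted p 0.0391). Called in smg-2 only were cbs-1 at -0.71 (adjusted p 0.0216) and asp-5 at -0.68 (adjusted p 0.0192). Apart from ftn-2, these rises were smaller in the NMD mutants.

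Among genes that fell, col-8 had differences of 1.02 (adjusted p 0.00411) in smg-1 and 0.80 (adjusted p 0.0255) in smg-2. For acdh-1 they were 0.76 (adjusted p 0.00283) and 0.81 (adjusted p 0.00116), and for asp-8 2.03 (adjusted p 2.75e-06) and 2.94 (adjusted p 3.19e-10). Called in smg-1 only were fat-7 at 2.20 (adjusted p 0.00585), gst-4 at 0.62 (adjusted p 0.0284) and T13F3.6 at 1.40 (adjusted p 0.0047), and in smg-2 only hach-1 at 0.68 (adjusted p 0.00129). All these falls were smaller in the NMD mutants.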

How the results depend on the processing

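With a mean of at least 5 CPM required, 9679 genes were tested and 3216 called, 1247 higher and 1969 lower, of which 394 and 772, 1166 together, changed by at least 2-fold; fewer genes entered that test. On the deposited log2(TPM + 1) values 5159 genes were called, and 635 higher and 700 lower, 1335 together, changed by at least 2-fold; the added 1 shrinks the fold change of low genes. Under the other settings the counts of called genes, and of those at least 2-fold changed, stayed within 1.5 times the reported ones. With 1 library left out, 4763 to 5369 genes were called (1532 to 1970 higher, 3154 to 3522 lower), and 2472 to 2915 changed by at least 2-fold (801 to 940 higher, 1628 to 2034 lower). The median over all genes was -0.03 in log2 as reported, 0.04 with the size factors of DESeq2 and 0.07 on the log2(TPM + 1) values.

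With the replicate letter as a block (replicate block), 6053 genes were called, 984 of them at least 2-fold higher and 1923 lower. Libraries of the same letter deviated from their group means with correlations of -0.34 to 0.30, above 0.1 in 3 of 5 letters. Of the 5, 3 correlated best with their own letter. The main fit did not pair the samples by letter. The check covered N2 and egl-9 only. In the sums of the 57 collagens, replicate D was the lowest library of every genotype but N2, and a letter effect shared across genotypes was not tested. Of 189 genes tracked through 17 settings, 173 kept their direction and side of the threshold in all settings that tested them. Among the rest, 27 comparisons lost the call, 21 gained it and 0 reversed. The planned search of promoters for the hypoxia response motif was not run, since no genome or promoter sequence was at hand. Genes with few reads limit these comparisons: at 1 to 3 counts a library cannot separate a low level from absence.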
